A study of Mus musculus with 12 samples.

Results

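Oncofetal genes are active in fetal liver, nearly silent in the adult organ and switched on again in liver tumours. The 10 genes described here were chosen as a named list of such markers and of other genes known from liver tumours. This list and the other gene lists used below were chosen with earlier results of these data known. Their shares and medians set beside those of all genes are therefore descriptions and no independent support. They are Afp, Gpc3, H19, Igf2, Igf2bp3, Tff3, Ly6d, Spink3, Scd2 and Akr1c18, and each was read by its symbol in the first column of both deposited count tables, where all 10 were present among 23420 gene rows. RNA-seq of poly(A) RNA covered 12 liver libraries from mice on a C57BL/6 background, in 4 groups of 3. In p62F/F livers both copies of the p62 gene, Sqstm1, were floxed and no Cre recombinase was present. In p62Δhep livers the same floxed alleles were combined with Alb-Cre, in which the albumin promoter drives Cre in hepatocytes; it is also active in the fetal precursors that hepatocytes share with bile duct cells, so that bile duct cells can carry the deletion too. Tsc1Δhep livers carried floxed Tsc1 with Cre, and Tsc1/p62Δhep livers carried floxed alleles of both genes with Alb-Cre. Thus all groups except p62F/F carried Cre, and every group carried floxed alleles. One table held p62F/F and p62Δhep, the other Tsc1Δhep and Tsc1/p62Δhep. Age, sex and diet of the animals, and whether a piece came from a tumour, are not given per sample in the sources used here. The deposited name of the table with Tsc1Δhep and Tsc1/p62Δhep holds the word NORMAL, and what it refers to is not stated. Nothing in the labels ties each library to an animal of its own, and the p-values therefore reflect the spread of these samples only, part or all of which may be technical.

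The genes fall into 4 kinds by what they encode. Afp encodes alpha-fetoprotein, the albumin-like protein of fetal serum that is measured clinically as a liver cancer marker, and Gpc3 encodes glypican-3, a heparan sulphate proteoglycan of the cell surface used in the same way. H19 and Igf2 are neighbouring imprinted genes that share enhancers, one a long non-coding RNA read from the maternal copy and the other a growth factor read from the paternal copy, and Igf2bp3 encodes a fetal RNA-binding protein named for its binding to Igf2 mRNA. Tff3 encodes trefoil factor 3, a small secreted peptide of mucous epithelia, Spink3 a secreted inhibitor of trypsin-like proteases known from pancreas and regenerating liver, and Ly6d a GPI-anchored surface protein of epithelia and early B cells. Scd2 encodes a stearoyl-CoA desaturase, which makes monounsaturated fatty acids and prevails in fetal tissues, where Scd1 prevails in adult liver, and Akr1c18 encodes 20α-hydroxysteroid dehydrogenase, an aldo-keto reductase that inactivates progesterone. p62 is an adaptor of selective autophagy that also releases the antioxidant transcription factor NRF2 from its inhibitor KEAP1, and TSC1, with TSC2, keeps the growth kinase mTORC1 in check. By the RefSeq annotation of mouse build GRCm38.p6, Afp lies between Alb and Afm on chromosome 5, H19 and Igf2 on chromosome 7, Igf2bp3 on 6, Akr1c18 between its relatives Akr1c14 and Akr1c13 on 13, Ly6d on 15, Tff3 on 17, Spink3 (listed there as Spink1) on 18, Scd2 on 19 and Gpc3 on X.

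Total counts per library were 15792048 to 33377247. The ribosomal RNA precursor Rn45s made up 1.91 to 3.50% of counts in the first table and 0.0751 to 1.21% in the second. The highest share of the second table was in Tsc1/p62Δhep library 1, and the cause was not tested. The targeted genes followed the labels, with Sqstm1 at 292 to 378 CPM (read counts scaled to the library total) in p62F/F and 872 to 1284 CPM in Tsc1Δhep, against 11.6 to 19.2 CPM in p62Δhep and 12.9 to 17.0 CPM after the double deletion. The Tsc1 transcript ranged over 25.2 to 43.0 CPM in the first table and 5.96 to 13.3 CPM in the second, where Tsc1Δhep library 3 held the highest value. Albumin, the defining hepatocyte transcript, was at 17373 to 63427 CPM in every library. It varied within groups, at 20234, 56808 and 57552 CPM in p62F/F libraries 1 to 3 and 18255, 46445.5 and 17373 CPM in those of Tsc1Δhep. The Y-linked Ddx3y was at 70.7 to 123 CPM and Xist at no more than 0.171 CPM in all 12 libraries. In p62F/F, library 1 held the lowest value of its group for 10 of the 10 genes, and in Tsc1Δhep library 3 held the lowest for 7 of 10. For some genes, though not all, results are given with and without these libraries.

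Promoter windows were read for the genes that the RefSeq promoter table of mouse build GRCm38.p6 held, which were 5 of the 10 (Afp, Gpc3, Igf2bp3, Igf2 and Akr1c18). H19, Tff3, Ly6d, Spink3 and Scd2 were missing from it. The 4 genes with a single start there are shown, so that the letters before their starts can be set beside their levels. Each window runs 5′ to 3′ on the gene's strand, from 250 bases before to 50 bases after the start. Capitals mark matches, on either strand, to any of 7 motifs: the antioxidant response element core TGACNNNGC, the TATA box TATAAA, the CCAAT box CCAAT, the E-box CACGTG, the FOXA core TGTTTAC, the TEAD core GGAATG and the sterol response element core TCACNCCAC. The Afp window is chr5:90490464-90490763 on the plus strand, that of Gpc3 is chrX:52613925-52614224, that of Igf2bp3 is chr6:49214905-49215204 and that of Akr1c18 is chr13:4150597-4150896, the last 3 on the minus strand.
Afp: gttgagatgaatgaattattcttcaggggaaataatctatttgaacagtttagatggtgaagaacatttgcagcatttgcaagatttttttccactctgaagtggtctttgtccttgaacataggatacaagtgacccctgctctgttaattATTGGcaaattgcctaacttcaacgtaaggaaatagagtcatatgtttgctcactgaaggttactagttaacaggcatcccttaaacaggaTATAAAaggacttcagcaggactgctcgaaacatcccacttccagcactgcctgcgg
Gpc3: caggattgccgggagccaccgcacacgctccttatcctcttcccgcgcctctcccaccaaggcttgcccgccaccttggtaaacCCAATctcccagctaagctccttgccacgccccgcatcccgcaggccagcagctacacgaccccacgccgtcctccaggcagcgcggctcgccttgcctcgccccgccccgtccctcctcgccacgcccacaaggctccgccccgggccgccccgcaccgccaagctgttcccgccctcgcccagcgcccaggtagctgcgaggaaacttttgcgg
Igf2bp3: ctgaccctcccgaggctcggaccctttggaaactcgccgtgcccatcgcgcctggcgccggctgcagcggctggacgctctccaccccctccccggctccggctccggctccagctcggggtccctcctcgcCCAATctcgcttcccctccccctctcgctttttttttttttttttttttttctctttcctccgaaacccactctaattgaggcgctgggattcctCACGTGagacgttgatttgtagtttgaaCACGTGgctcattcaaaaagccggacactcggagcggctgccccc
Akr1c18: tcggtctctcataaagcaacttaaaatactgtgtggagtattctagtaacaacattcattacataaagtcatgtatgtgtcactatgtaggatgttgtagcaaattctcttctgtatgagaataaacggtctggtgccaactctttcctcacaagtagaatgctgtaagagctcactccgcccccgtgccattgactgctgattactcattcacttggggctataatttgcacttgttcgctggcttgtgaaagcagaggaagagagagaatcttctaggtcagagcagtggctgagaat

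The Afp window held a CCAAT box on the other strand at -98 from the start and a TATA box at -7. Of 32851 promoter windows of the same length, 13.6% held the TATA box and 37.4% the CCAAT box. In the Igf2bp3 window the E-box, the letters bound by MYC and related factors, occurred at -23 and at 6, and 7.15% of all windows held it at least once. A CCAAT box stood at -118 in Igf2bp3 and at -166 in Gpc3. None of the 7 motifs occurred in the Akr1c18 window, and the antioxidant core, present in 12.4% of all windows, was in none of the 4 shown. It did occur for Igf2, which was read but is not shown. The Igf2 window chr7:142661222-142661521 held the antioxidant core on the other strand at 3. The TEAD core occurred in that window at -218 and -112, and in other Igf2 windows at -180 and -163. A CCAAT box on the other strand stood at -231 in the Igf2 window chr7:142657447-142657746. G and C made up 70.7% of the Gpc3 window, 60.3% of Igf2bp3, 42.3% of Akr1c18 and 40% of Afp, against a median of 52.7% over all windows. No motif was common to all 4 windows shown, although 3 of them held a CCAAT box, and no pair of matches in them overlapped. A match is a description of letters and not a measured binding site.

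In livers lacking Tsc1, loss of p62 went with far lower levels of these markers: of the 10 genes, 8 could be tested and all 8 were lower in Tsc1/p62Δhep than in Tsc1Δhep, by 12.4-fold (Gpc3) to 729-fold (Tff3), where 14.9% of all genes tested were lower. In livers with intact Tsc1 none of 9 tested genes passed the threshold between p62Δhep and p62F/F, although all 9 estimates were negative (0.0159% of all genes were called lower). Tff3, Ly6d and Spink3 differed more between the p62 genotypes without Tsc1 than with it, a direction in which 9.32% of all genes passed the test of this difference. Among the 4 groups Tsc1Δhep had the highest mean for 8 of the 10 genes, whereas H19 and Akr1c18 were highest in p62F/F, the only group without Cre. Leaving out 1 library exchanged these top groups for Afp (without p62F/F 1 or Tsc1Δhep 2), Gpc3 and Igf2 (without Tsc1Δhep 2), Scd2 (without p62F/F 1) and H19 (without p62F/F 3, which lowered its mean there to 56.9 CPM against 160 CPM in Tsc1Δhep, or without Tsc1Δhep 1 or 3). In bulk liver RNA, fewer cells that express a gene and less of its RNA per cell cannot be told apart.

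**Figure D1:**
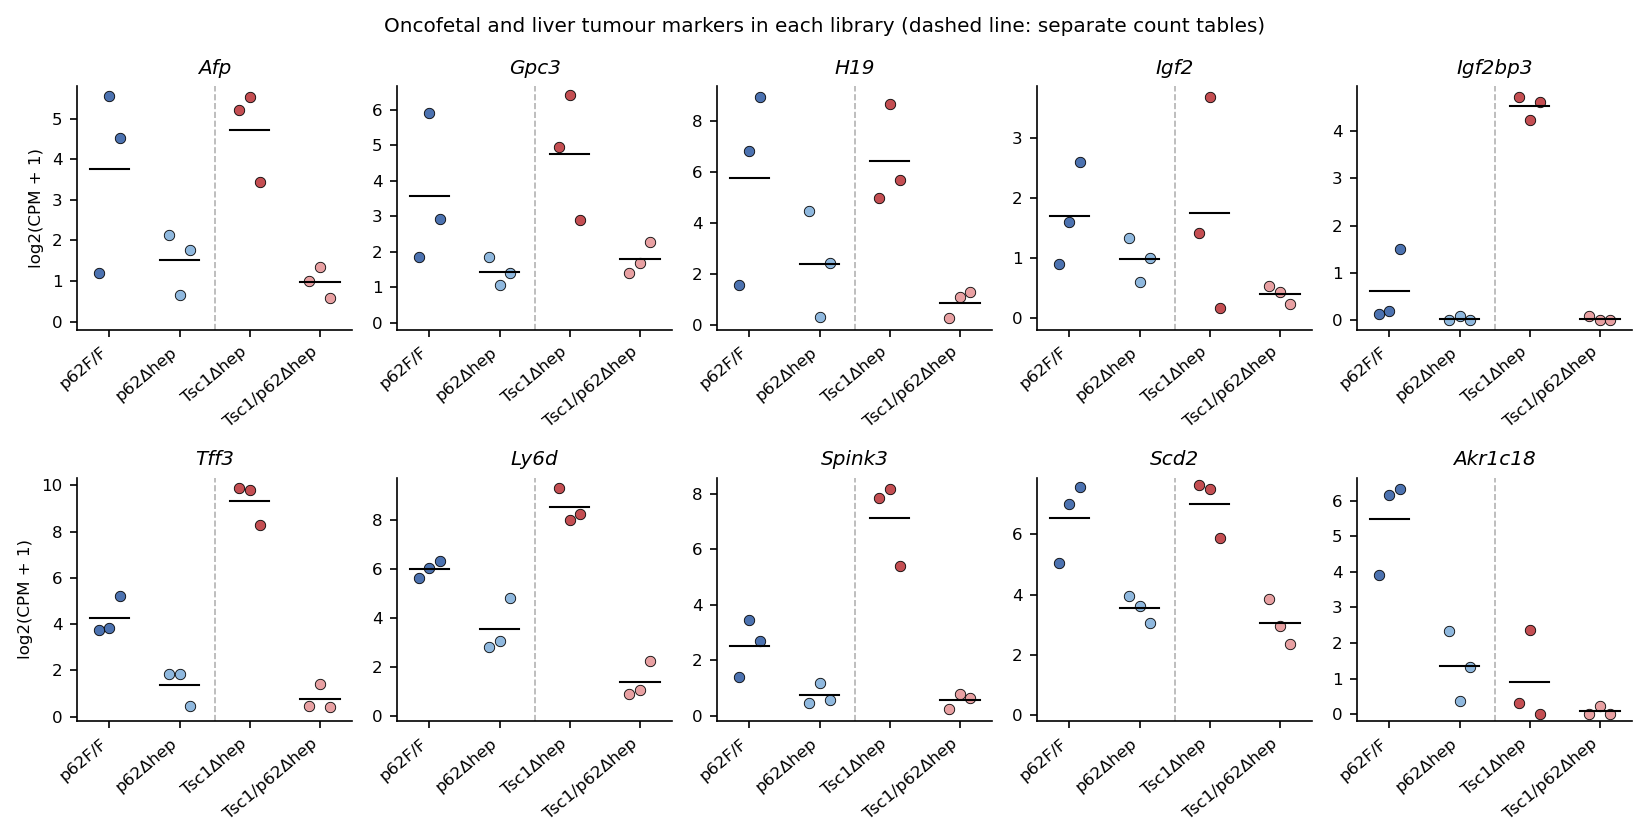
Level of each of the 10 genes in every library, as log2(CPM + 1) with CPM of library totals on the vertical axis and the 4 groups of 3 libraries on the horizontal axis (libraries 1 to 3 from left to right). Black bars are group means of the log2 values and the dashed line separates the 2 count tables, across which levels were not tested. The 3 Tsc1/p62Δhep points of Tff3, Ly6d, Spink3 and Igf2bp3 lie far under the 3 Tsc1Δhep points, while p62F/F library 1 lies lowest of its group in every panel.

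Afp, the fetal serum protein, stood at 36.1, 45.3 and 9.78 CPM in Tsc1Δhep libraries 1 to 3 and at 1.01, 1.53 and 0.505 CPM in Tsc1/p62Δhep. Every Tsc1Δhep library lay above every Tsc1/p62Δhep library. The change was -4.60 ± 0.70 (log2 fold change ± SE, 24.2-fold lower, adjusted p = 0.00496, quasi-likelihood test of edgeR, adjusted by Benjamini-Hochberg over 12620 genes, as for all tests of this pair). In p62F/F it was at 1.31, 46.1 and 22.0 CPM and in p62Δhep at 3.38, 0.570 and 2.41 CPM. These groups overlapped, because p62F/F library 1 was below 2 of the 3 p62Δhep libraries. The estimate was -3.37 ± 1.06 with an adjusted p of 0.478 over 12567 genes. Without p62F/F library 1 and p62Δhep library 1 together, an alternative chosen after the data were seen, it was -4.28 with an adjusted p of 0.0378. That fit called 89 of 12726 genes lower and 19 higher, against 2 and 0 with every library of this pair.

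Gpc3, the surface proteoglycan, was at 29.7, 83.6 and 6.40 CPM in Tsc1Δhep, against 1.65, 2.18 and 3.87 CPM in Tsc1/p62Δhep. The groups did not overlap, but the lowest Tsc1Δhep library, library 3, was close to the highest of the other group. The log2 fold change was -3.64 ± 0.90 (adjusted p = 0.0248), and the call did not hold without Tsc1Δhep library 2 (-2.49, adjusted p = 0.0741) or without any one of the Tsc1/p62Δhep libraries (-3.38, -3.51 and -4.07, adjusted p = 0.104, 0.0962 and 0.0605 for libraries 1, 2 and 3). In the first table Gpc3 stood at 2.622, 59.7 and 6.53 CPM in p62F/F, against 2.617, 1.08 and 1.62 CPM in p62Δhep. Library 2 of p62F/F was far from the rest, and the groups were separate only by the margin between 52 counts in p62F/F library 1 and 48 in p62Δhep library 1. The estimate was -3.61 ± 1.09 with an adjusted p of 0.452.

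H19, the imprinted non-coding RNA, had the widest relative range of the list in p62F/F, at 1.92, 112 and 486 CPM, or 254-fold from lowest to highest. In p62Δhep it was at 21.2, 0.228 and 4.35 CPM, so that p62Δhep library 1 lay above p62F/F library 1. The estimate was -4.57 ± 1.78 and did not pass the threshold (adjusted p = 0.587). In Tsc1Δhep the 3 libraries were at 29.9, 400.1 and 50.6 CPM and in Tsc1/p62Δhep at 0.190, 1.12 and 1.40 CPM. Here the groups were widely separate, with a log2 fold change of -7.11 ± 1.28 (138-fold lower, adjusted p = 0.00825). Without Tsc1Δhep library 2, the highest, the change was -5.07 (33.6-fold, adjusted p = 0.0104).

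Igf2, which encodes the fetal growth factor, was low throughout. The p62F/F libraries held 0.857, 2.02 and 5.04 CPM, and those of p62Δhep 1.53, 0.513 and 0.989 CPM, with overlap. The Tsc1Δhep libraries held 1.66, 11.9 and 0.114 CPM, and those of Tsc1/p62Δhep 0.443, 0.353 and 0.168 CPM. Tsc1Δhep library 3, with 0.114 CPM, was below every Tsc1/p62Δhep library, so these groups overlapped. In p62Δhep against p62F/F the estimate was -1.35 ± 0.63 (adjusted p = 0.639). Too few counts were present for the filter in the second table. With no filter the estimate there was -3.48 ± 1.28 (adjusted p = 0.0925), and without Tsc1Δhep library 3 Igf2 passed both the filter and the threshold (-4.08, adjusted p = 0.0119). It also reached the filter without any one of the Tsc1/p62Δhep libraries, but not the threshold (-3.79, -3.58 and -3.21, adjusted p = 0.212, 0.224 and 0.227 for libraries 1, 2 and 3). DESeq2 gave -3.51 with an adjusted p of 0.0126.

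Igf2bp3, the fetal mRNA-binding protein, was measured in Tsc1Δhep at 25.3, 17.7 and 23.6 CPM, the narrowest ratio of highest to lowest of any member in that group (22.2 ± 3.98 CPM, SD, n = 3). Tsc1/p62Δhep held 1 count in library 1 and none in libraries 2 and 3, where a count of 0 allows up to 0.176 and 0.168 CPM. With 1553 counts against 1, the ratio of pooled counts, scaled to the pooled library totals of each group, was 1082. Its exact 95% counting interval was 194 to 42774. The fitted log2 fold change was -9.44 ± 0.61 (adjusted p = 0.000466). The fitted value depends on the prior count of the model and is no bound, and it was -11.78 without Tsc1/p62Δhep library 1, which held the only count. In p62F/F the gene had 2, 3 and 33 counts (0.101, 0.144 and 1.83 CPM) and in p62Δhep 0, 1 and 0 counts. Most p62F/F counts came from library 3, and the gene did not reach the filter in that table. With no filter it gave -4.86 ± 1.56 (adjusted p = 0.472).

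Tff3, the epithelial trefoil peptide, was abundant in Tsc1Δhep, at 936, 897 and 314 CPM. In Tsc1/p62Δhep it was at 0.380, 1.65 and 0.337 CPM. All 3 double-deletion libraries thus lay far below the lowest Tsc1Δhep library, and the log2 fold change was -9.51 ± 0.88 (729-fold lower, adjusted p = 0.00104), or 1567-fold without Tsc1/p62Δhep library 2. In p62F/F Tff3 was at 12.5, 13.1 and 36.4 CPM and in p62Δhep at 2.56, 2.57 and 0.356 CPM. The groups of this table did not overlap, yet the estimate of -3.52 ± 0.70 did not pass the threshold (unadjusted p = 0.00121, adjusted p = 0.293). DESeq2 called it (adjusted p = 0.0121).

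Spink3, the protease inhibitor, was at 229, 293 and 41.4 CPM in Tsc1Δhep, against 0.190, 0.706 and 0.562 CPM in Tsc1/p62Δhep. Library 3 of Tsc1Δhep was again the lowest of its group and still far above the others. The change was -8.26 ± 0.95 (306-fold lower, adjusted p = 0.00189). In the first table Spink3 was at 1.61, 9.92 and 5.48 CPM in p62F/F, against 0.382, 1.25 and 0.475 CPM in p62Δhep. These groups were also separate, with an estimate of -2.94 ± 0.71 (adjusted p = 0.343; DESeq2 0.00128).

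Ly6d, the surface protein of epithelia, was the most even of the list in p62F/F, at 48.6, 65.8 and 80.1 CPM. Loss of p62 alone left 6.11, 7.47 and 27.0 CPM, with no overlap. The estimate was -2.19 ± 0.55, with an adjusted p of 0.379. In Tsc1Δhep Ly6d reached 636, 259 and 301 CPM and in Tsc1/p62Δhep 0.887, 1.12 and 3.71 CPM. The fall was -7.36 ± 0.76 (165-fold, adjusted p = 0.00139), or 109-fold without Tsc1Δhep library 1 and 317-fold without Tsc1/p62Δhep library 3.

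Scd2, the fetal-type desaturase, had overlapping levels in the 2 groups with p62, at 32.3, 128 and 189 CPM in p62F/F and 196, 179.7 and 57.6 CPM in Tsc1Δhep. In the groups without p62 it stood at 14.6, 11.3 and 7.36 CPM (p62Δhep) and at 13.6, 6.76 and 4.16 CPM (Tsc1/p62Δhep). Groups did not overlap within either table. The change between Tsc1/p62Δhep and Tsc1Δhep was -3.85 ± 0.63 (14.4-fold lower, adjusted p = 0.00616). For p62Δhep against p62F/F it was -3.36 ± 0.58 and did not pass the threshold (unadjusted p = 0.000502, adjusted p = 0.250), but did without p62F/F library 1 (-3.78, adjusted p = 0.0139). DESeq2 gave an adjusted p of 0.00032.

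Akr1c18, the progesterone-inactivating reductase, went its own way between tables. It was at 14.0, 71.1 and 79.7 CPM in p62F/F, against 4.04, 0.285 and 1.50 CPM in p62Δhep. The groups were separate, and the estimate was -4.80 ± 0.83 (unadjusted p = 0.000526, adjusted p = 0.250), with an adjusted p of 0.0356 without p62F/F library 1 (-5.24) and of 0.00133 by DESeq2. In the second table Akr1c18 was near absent in both groups, with 5, 139 and 0 counts in Tsc1Δhep and 0, 3 and 0 in Tsc1/p62Δhep. Nearly all of these counts came from Tsc1Δhep library 2 (4.16 CPM), and the gene did not reach the filter. The ratio of pooled counts, scaled to the pooled library totals of each group, was 33.4 with an exact 95% counting interval of 11.2 to 164. This interval covers counting error only, and pooling gives the deepest library the most weight.

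By comparison, 0 of the 10 genes were called in p62Δhep against p62F/F by edgeR, where 0.0159% of all genes tested were called lower. At an unadjusted p below 0.05, 8 of the 9 tested genes were lower, against 4.96% of all genes, the exception being Igf2. For 6 genes (Gpc3, Tff3, Ly6d, Spink3, Scd2 and Akr1c18) the groups did not overlap, against 5.16% of all genes in CPM of library totals and 6.65% in TMM-scaled CPM. DESeq2 called 4 of them lower (Tff3, Spink3, Scd2 and Akr1c18), where it called 148 of 16726 genes lower and 32 higher. The median estimate was -3.37 over the 9, against 0.00 over all genes tested. Since p62F/F alone had no Cre, these values cannot be told apart from an effect of Cre itself.

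Between Tsc1/p62Δhep and Tsc1Δhep, 8 genes were called lower and none higher, where 14.9% of all genes tested were called lower and 9.25% higher. The same 8 did not overlap between groups, which in that direction held for 39.8% of all genes in CPM of library totals and 23.4% in TMM-scaled CPM. Their median was -7.24, against -0.05 for all genes tested. Scaling by library totals alone, with no TMM factor, moved that median of all genes to -0.40 and their calls to 3337 lower and 576 higher (14.7% of calls higher, against 38.2%), with the 8 members lower as before. A gene that is nearly silent in one group passes the filter only through the group where it is high, so these counts and medians describe the genes that could be tested and not the whole list, which also holds Igf2 and Akr1c18.

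The difference of both p62 effects, an interaction contrast over all 12 libraries and 13231 genes, could be tested for all 10 genes. It was past the threshold for Tff3 at -6.01 ± 1.10 (adjusted p = 0.00550), Ly6d at -5.17 ± 0.94 (adjusted p = 0.00517) and Spink3 at -5.31 ± 1.26 (adjusted p = 0.0168), where 9.32% of all genes were called in that direction and 6.76% in the other. With library totals alone the higher share of all calls fell from 42.0% to 14.9%, and 3 members were called as well. The Spink3 call did not hold without p62Δhep library 2 (-4.60, adjusted p = 0.0685). For Scd2 the difference was -0.50 ± 0.86 (adjusted p = 0.715), for Afp -1.23 ± 1.36 (0.551) and for Gpc3 -0.04 ± 1.53 (0.989), and these SEs leave several-fold differences in Afp and Gpc3 within reach. The other genes gave -2.56 ± 2.26 (H19), -2.19 ± 1.60 (Igf2), -4.55 ± 3.78 (Igf2bp3) and 0.49 ± 3.92 (Akr1c18). The errors were widest for Igf2bp3, with a summed count of 1 over the p62Δhep libraries, and for Akr1c18, with a summed count of 3 over the Tsc1/p62Δhep libraries.

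**Figure D2:**
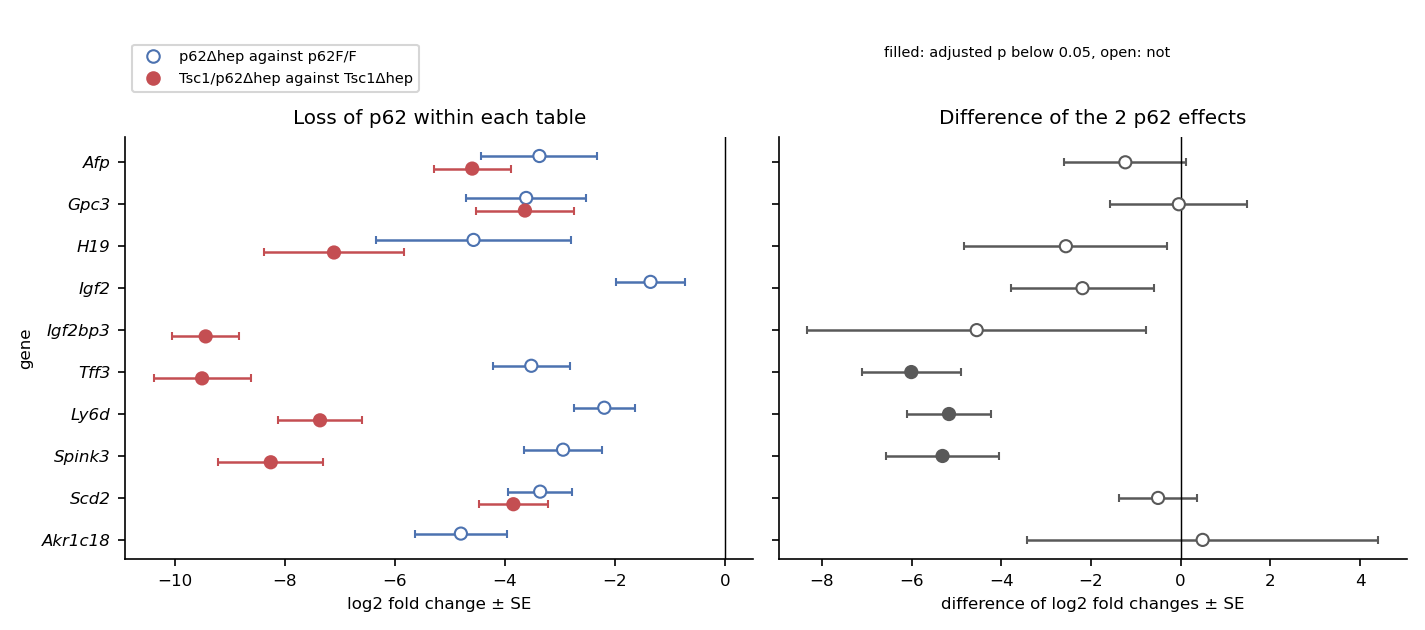
Left, log2 fold change ± SE of each gene for p62Δhep against p62F/F (blue) and Tsc1/p62Δhep against Tsc1Δhep (red); right, the difference of these effects ± SE from the fit of 12 libraries. Filled points have an adjusted p below 0.05 and open points do not, and genes that did not reach the filter (Igf2bp3 in the first table, Igf2 and Akr1c18 in the second) have no point on the left. Tff3, Ly6d and Spink3 are the genes whose red points lie farthest from the blue ones and whose difference is filled.

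Setting the groups side by side, without a test because Tsc1 genotype and table cannot be told apart, the 2 groups with p62 had higher means than the 2 without it for 9 of the 10 genes, though not for Igf2 without Tsc1Δhep library 2. The exception was Akr1c18, whose mean was 1.46 ± 2.34 CPM in Tsc1Δhep and 1.94 ± 1.91 CPM in p62Δhep (SD, n = 3). Akr1c18 joined the other 9 without p62Δhep library 1, without Tsc1Δhep library 1 or without Tsc1Δhep library 3. Ranges of Tsc1Δhep and p62F/F did not overlap for Igf2bp3, Tff3, Ly6d and Spink3, which were higher in Tsc1Δhep, nor for Akr1c18, which was higher in p62F/F. They overlapped for Afp, Gpc3, H19, Igf2 and Scd2, so these neighbours in the order did not differ beyond their spread. At the low end, p62Δhep and Tsc1/p62Δhep overlapped for Afp, Gpc3, H19, Igf2bp3, Tff3, Spink3 and Scd2. For Ly6d, Igf2 and Akr1c18 the p62Δhep libraries were all above the Tsc1/p62Δhep ones. The share of all genes with such an order of means, or with ranges apart between the tables, was not computed. These counts are therefore not shown to be particular to the members. Tff3 went from 716 ± 349 CPM in Tsc1Δhep and 20.6 ± 13.6 CPM in p62F/F to 1.83 ± 1.27 CPM in p62Δhep and 0.788 ± 0.744 CPM in Tsc1/p62Δhep.

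Levels can be compared between genes only per length, here as CPM per kilobase of the longest transcript in the GENCODE M21 annotation. On this scale of levels the order in Tsc1Δhep was Tff3 (1452), Ly6d (536), Spink3 (258), H19 (70.1), Scd2 (26.5), Gpc3 (18.0), Afp (14.7), Igf2bp3 (5.11), Akr1c18 (1.22) and Igf2 (0.967). In p62F/F H19 (87.5), Ly6d (87.2), Akr1c18 (45.8) and Tff3 (41.8) led. The secreted and surface products of epithelia thus led the list in Tsc1Δhep, and the classic markers Afp and Gpc3 stood far under Tff3 there. Albumin stood at 13450 CPM per kilobase in Tsc1Δhep, far over Afp, its fetal relative.

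Close relatives of the members moved in both directions. Of 20 relatives tested between Tsc1/p62Δhep and Tsc1Δhep, 7 were lower and 4 higher, with a median of -0.39; leaving out Tsc1/p62Δhep library 1 gave 3 lower and 1 higher. Igf2bp2, the family member expressed after birth, was at 9.38, 6.83 and 7.20 CPM in Tsc1Δhep, against 1.08, 1.53 and 1.57 CPM in Tsc1/p62Δhep (-2.14 ± 0.34, adjusted p = 0.00561). In the first table Igf2bp2 was instead at 1.76, 1.01 and 2.05 CPM in p62F/F, against 3.11, 3.65 and 3.72 CPM in p62Δhep, separate in the other direction (1.14 ± 0.34, adjusted p = 0.448), and its difference of effects was -3.28 ± 0.48 (adjusted p = 0.00201). Igf2bp1, the other fetal family member, had counts only in Tsc1Δhep libraries 1 and 2, at 0.598 and 0.330 CPM.

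Tff2, the neighbour of Tff3 on chromosome 17, was at 3.22, 1.59 and 1.60 CPM in Tsc1Δhep, against 0.380, 0.176 and 0.337 CPM in Tsc1/p62Δhep (-2.50 ± 0.55, adjusted p = 0.0173, past the threshold in 3 of 6 fits without 1 library). Among the Ly6 surface proteins Ly6e (-2.85 ± 0.33, adjusted p = 0.00177) and Ly6c1 (-5.11 ± 0.82, adjusted p = 0.00566) were lower as well. Of the glypicans, Gpc1 was lower, at 47.3 to 96.7 CPM in Tsc1Δhep and 16.7 to 20.4 CPM in Tsc1/p62Δhep (-1.49 ± 0.27, adjusted p = 0.00860, past the threshold in 4 of 6 fits without 1 library). Gpc4, which lies beside Gpc3 on chromosome X, was at 46.1 to 56.3 CPM in Tsc1Δhep and 42.6 to 68.5 CPM in Tsc1/p62Δhep (0.36 ± 0.23, adjusted p = 0.269). The chromosome 5 neighbours of Afp moved the other way or did not pass: Afm was higher at 1.25 ± 0.37 (adjusted p = 0.0441, past the threshold in 2 of 6 fits without 1 library) and Alb was at 1.21 ± 0.46 (adjusted p = 0.0907). Among the aldo-keto reductases, where near-identical copies make counts uncertain, Akr1c12 was higher at 1.47 ± 0.21 (adjusted p = 0.00400).

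The desaturase pair went in opposite directions. Scd1, the adult liver form, was at 2573, 3433 and 7327 CPM in Tsc1Δhep, against 14893, 14711 and 5917 CPM in Tsc1/p62Δhep, where the groups overlapped through library 3 of each. It was higher at 1.79 ± 0.48 (adjusted p = 0.0321), a call that held in 2 of 6 fits without 1 library. In p62Δhep Scd1 was at 3404, 5498 and 125 CPM, against 5504, 3718 and 7621 CPM in p62F/F (-0.88 ± 1.01, adjusted p = 0.852). Per kilobase the mean level of Scd2 was 26.5 in Tsc1Δhep and 1.50 in Tsc1/p62Δhep, and that of Scd1 was 920 and 2450.

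None of the listed transcription factors known to control Afp or H19 passed the test as lower. Of 16 tested between Tsc1/p62Δhep and Tsc1Δhep, none was lower and 4 were higher, a count that ranged from 0 without Tsc1/p62Δhep library 1 to 9 without Tsc1Δhep library 3, and was 1 with library totals alone. The 4 were Cebpb (1.46 ± 0.33, adjusted p = 0.0183), Zbtb20 (1.68 ± 0.42, 0.0266), Nr2f2 (1.47 ± 0.39, 0.0304) and Foxa1 (1.19 ± 0.33, 0.0374). Zbtb20 and Zhx2 are known repressors of Afp in adult liver, and Zhx2 was at 0.51 ± 0.32 (adjusted p = 0.257). Zhx2 was named after its value was seen. In p62Δhep against p62F/F none of the 16 was called by edgeR or by DESeq2, and 0 were at an unadjusted p below 0.05 in edgeR.

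In the growth factor axis around Igf2 more genes rose than fell in the double deletion. Of 14 genes of the IGF axis, 5 were higher and 1 lower in Tsc1/p62Δhep than in Tsc1Δhep, with a range of 3 without Tsc1/p62Δhep library 1 to 7 without Tsc1Δhep library 3 for the higher ones. Igf1, the adult liver growth factor, was at 110, 119 and 157 CPM in Tsc1Δhep, against 680, 666 and 349 CPM in Tsc1/p62Δhep (2.48 ± 0.31, adjusted p = 0.00250). The binding proteins Igfbp2 (3.68 ± 0.37, adjusted p = 0.00119), Igfbp5 (4.08 ± 0.31, 0.000553) and Igfbp4 (1.16 ± 0.21, 0.00885) and the adaptor Irs1 (1.18 ± 0.24, 0.0119) were the other rises, of which Igfbp4 and Irs1 were lost without Tsc1/p62Δhep library 1 (0.0508 and 0.0635). Igfbp1 was lower (-2.24 ± 0.57, 0.0276; 0.113 without that library). The receptors Igf1r (0.09 ± 0.41, adjusted p = 0.890) and Igf2r (0.09 ± 0.33, 0.849) did not pass the threshold. Irs1, Igfbp1 and both receptors were named after their values were seen. The difference of effects was past it for 5 of the 14, all higher, with Igfbp5 at 5.54 ± 0.79 and Igf1 at 2.73 ± 0.43.

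Most other oncofetal and liver tumour genes fell. Of 27 tested, 20 were lower and 2 higher in Tsc1/p62Δhep (median -2.54), and 14 were lower without Tsc1/p62Δhep library 2. Cd44, a hyaluronan receptor of tumour-initiating cells, was at 76.9, 78.6 and 67.5 CPM in Tsc1Δhep, against 3.80, 3.82 and 3.20 CPM in Tsc1/p62Δhep (-4.03 ± 0.23, adjusted p = 0.000366). The iron-siderophore binding protein Lcn2 (-5.61 ± 0.42, 0.000553), S100a11 (-4.65 ± 0.41, 0.000872) and Anxa2 (-4.14 ± 0.41, 0.00119), both calcium-dependent membrane-binding proteins, were lower too. Lcn2 was at 306 to 652 CPM in Tsc1Δhep, against 162 to 1986 CPM in p62F/F and 306 to 2565 CPM in p62Δhep. The 2 higher genes, named after their values were seen, were Glul, the glutamine synthetase of pericentral hepatocytes (2.46 ± 0.45, adjusted p = 0.00881), and Robo1, a guidance receptor (1.60 ± 0.44, 0.0353; 0.133 without Tsc1/p62Δhep library 1). In p62Δhep against p62F/F none of 25 tested was called by edgeR, of which 8 were at an unadjusted p below 0.05, and DESeq2 called 2. The smallest p-values were those of Prom1 (-3.16 ± 0.77, adjusted p = 0.345) and Tspan8 (-3.89 ± 0.96, 0.355), and Cd44 was at 15.0 to 20.9 CPM in p62F/F, with 16.0 to 29.7 CPM in p62Δhep. Cd44 did not share the negative estimates of the members there (0.42 ± 0.26, adjusted p = 0.726), and its difference of effects was -4.45 ± 0.36 (adjusted p = 0.000132).

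**Figure D3:**
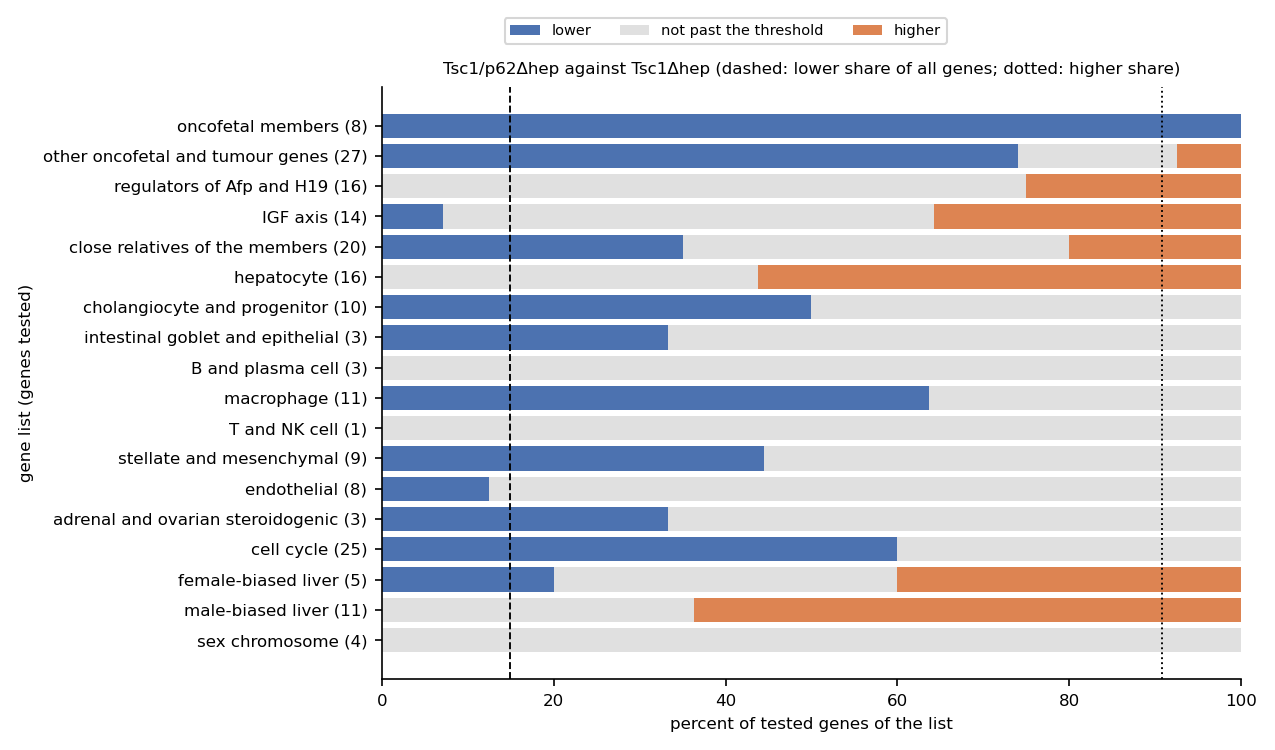
Share of the tested genes of each list (horizontal axis, percent) that were lower (blue), not past the threshold (grey) or higher (orange) in Tsc1/p62Δhep against Tsc1Δhep, with the number tested in brackets. The dashed line is the share of all genes called lower (14.9%) and the dotted line is placed so that the share called higher (9.25%) lies to its right. The members are lower in 8 of 8 and the other oncofetal genes in 20 of 27, while the regulators of Afp and H19, the hepatocyte genes and the male-biased genes show only orange and grey.

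Some genes of other cell types and states were also lower in Tsc1/p62Δhep than in Tsc1Δhep, and their part in the result was not tested. Cholangiocyte and progenitor markers were lower for 5 of 10 tested in Tsc1/p62Δhep (2 without Tsc1/p62Δhep library 1 and 8 without Tsc1Δhep library 2). Their summed level was 973 to 5647 CPM in Tsc1Δhep and 94.2 to 129 CPM in Tsc1/p62Δhep, and Spp1, which encodes osteopontin and leads this sum, was at 5504, 2446 and 882 CPM and at 82.3, 67.9 and 103 CPM. In the first table the sum of these markers was 306 to 513 CPM in p62F/F, with 92.9 to 458 CPM in p62Δhep. Spp1, Tspan8, Sox9, Epcam and Prom1 also stand in the list of other oncofetal genes. Cell cycle genes were lower for 15 of 25 (median -2.38), among them Mki67 (-3.58 ± 0.41, adjusted p = 0.00177), with a summed level of 240.0 to 376 CPM in Tsc1Δhep and 70.1 to 154 CPM in Tsc1/p62Δhep. Cell cycle sums in the first table were 88.9 to 166 CPM (p62F/F) and 87.7 to 100.2 CPM (p62Δhep). Macrophage markers were lower for 7 of 11, at 397 to 583 CPM summed in Tsc1Δhep and 129 to 152 CPM in Tsc1/p62Δhep. Their mean log2(CPM + 1), less its mean over the 12 libraries, overlapped between these groups. It was -1.33 in Tsc1Δhep library 1 and -1.36 to -1.15 in Tsc1/p62Δhep. In the first table macrophage sums were 524 to 652 CPM in p62F/F and 645 to 919 CPM in p62Δhep, with a median estimate of 0.42. Stellate and mesenchymal markers were lower for 4 of 9, a count of 1 without Tsc1Δhep library 2. Their sums overlapped, at 60.7 to 393 CPM in Tsc1Δhep and 197 to 254 CPM in Tsc1/p62Δhep.

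Markers of pancreatic acinar cells, which normally make Spink3 in quantity, summed to 0.164 to 1.16 CPM in all libraries, with 8 of 12 genes at 0 in all 3 Tsc1Δhep libraries. Intestinal goblet and epithelial markers, of the main site of Tff3, summed to 20.2 to 48.1 CPM in Tsc1Δhep and 3.12 to 5.95 CPM in Tsc1/p62Δhep. Among them the brush-border gene Vil1 was at 30.5, 39.3 and 5.37 CPM in Tsc1Δhep and was the only one called (-6.39 ± 0.89, adjusted p = 0.00354). Of the goblet cell genes, Agr2 and Zg16 were at 0 in every Tsc1Δhep library and Muc2 and Spdef reached at most 0.0920 and 0.210 CPM there. Markers of B cells, which share Ly6d, summed to 5.20 to 14.6 CPM in Tsc1Δhep and 8.65 to 18.9 CPM in Tsc1/p62Δhep, and none of 3 tested was called. Adrenal and ovarian markers, for the tissues that make steroids, summed to 22.7 to 84.2 CPM in p62F/F, where Akr1c18 was highest, and 26.7 to 97.9 CPM in p62Δhep, with none of 3 called. The steroid hydroxylase Cyp17a1 made up most of this, at 81.8, 20.4 and 60.3 CPM in p62F/F, while Nr5a1 and Cyp11b1 were at 0 in every library of the study. In Tsc1/p62Δhep 1 of the 3 was lower, also Cyp17a1 (-2.28 ± 0.47, adjusted p = 0.0137). T and NK cell markers had 1 tested gene and endothelial markers 8, of which 0 and 1 (Pecam1, -1.14 ± 0.34, adjusted p = 0.0469) were lower in Tsc1/p62Δhep. None of 4 sex chromosome genes was called.

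Many hepatocyte markers rose. They were higher for 9 of 16 and lower for none in Tsc1/p62Δhep (6 without Tsc1/p62Δhep library 1), among them the bile acid transporter Slc10a1 (4.13 ± 0.40, adjusted p = 0.00115) and the cytochrome Cyp3a11 (4.61 ± 0.66, 0.00404). Male-biased liver genes were higher for 7 of 11, led by the fatty acid elongase Elovl3 (5.46 ± 0.59, adjusted p = 0.00153), with sums of 2222 to 11831 CPM in Tsc1Δhep and 15386 to 21940.5 CPM in Tsc1/p62Δhep. Female-biased genes were lower for 1 and higher for 2 of 5, and each fit without 1 library called 0 to 1 in either direction. In the first table their sum was 47.0, 550.0 and 208 CPM in p62F/F libraries 1 to 3 and 4.28 to 24.5 CPM in p62Δhep, and Cyp2a4 had the smallest p of them (-5.59 ± 1.06, adjusted p = 0.293). The p62F/F library with the least female-biased RNA, library 1, was also the one with the least of all 10 members, and the part of this in the result was not tested.

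**Figure D4:**
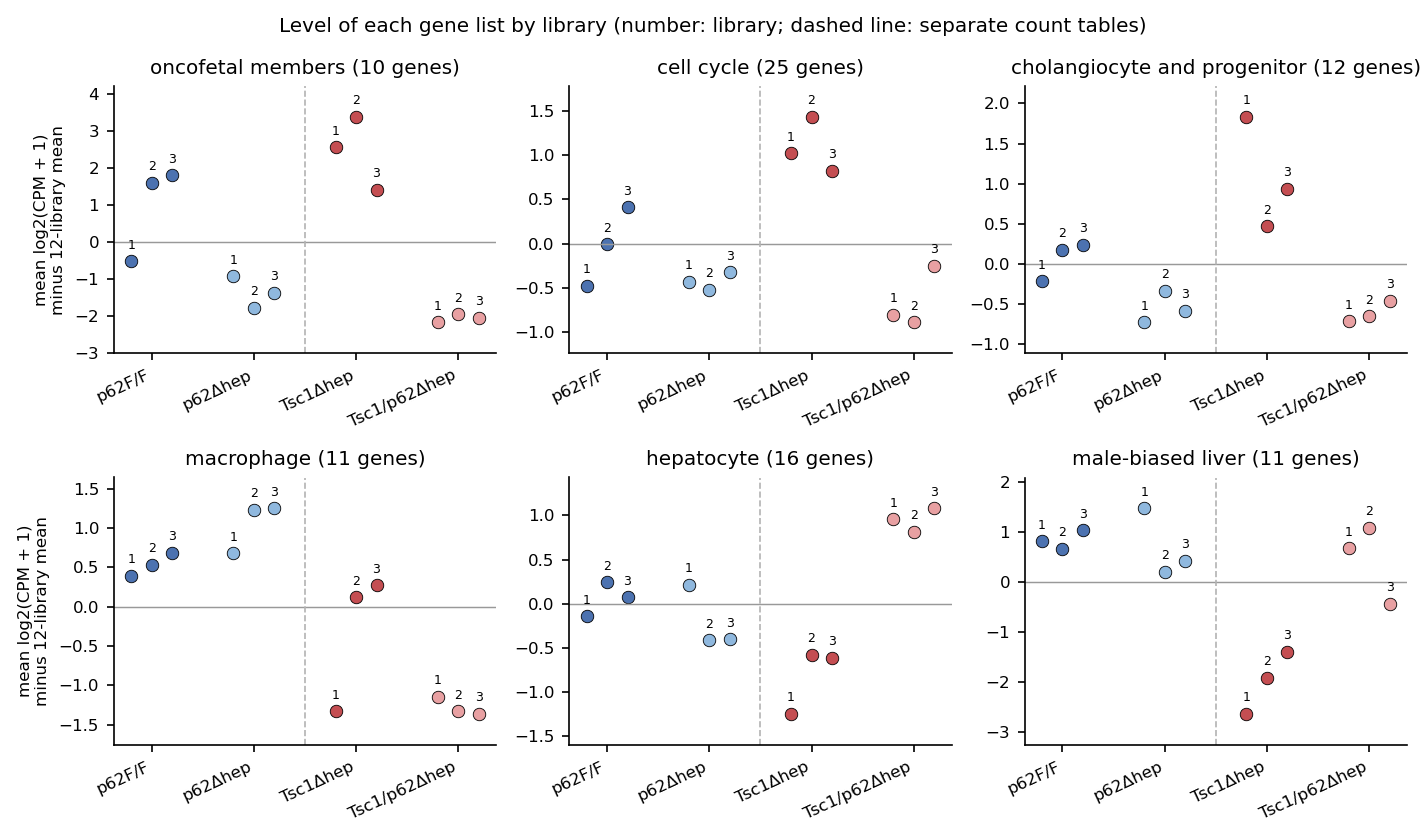
Mean level of the 10 members and of 5 lists in each library, as the mean over genes of log2(CPM + 1) minus its mean over the 12 libraries (vertical axis), with libraries numbered 1 to 3 in each group and a dashed line between the count tables. The members reach 1.41 to 3.39 in Tsc1Δhep and -2.17 to -1.96 in Tsc1/p62Δhep, and p62F/F library 1 lies at -0.51, near the p62Δhep libraries. Cell cycle and cholangiocyte genes share the Tsc1Δhep peak, macrophage genes are highest in p62Δhep libraries 2 and 3, and hepatocyte and male-biased genes are lowest in Tsc1Δhep.

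Across the 12 libraries the members followed each other unequally. On log2(CPM + 1) centred within each table, the Pearson correlation of a member with the mean of the other 9 was highest for Scd2 (0.951), Afp (0.942) and Spink3 (0.941) and lowest for Akr1c18 (0.613) and Igf2 (0.735). The closest pairs were Tff3 and Spink3 (0.966) and Igf2bp3 and Tff3 (0.960), whereas the imprinted neighbours H19 and Igf2 gave 0.794 and Igf2bp3 and its namesake target Igf2 0.524. These values describe 12 libraries that share 4 genotypes, so a common difference between groups enters each of them. Compared were 10994 genes with at least 50 counts on average, members among them. Those outside the list most like the mean of the 10 members were Tmem54 (0.983), Col4a5 (0.982), Arhgap22 (0.981), Chmp4c (0.978), Cdc20 (0.973) and Myc (0.972). Tmem54 stood at 0.202, 6.41 and 9.69 CPM in p62F/F, against 35.7, 30.9 and 7.43 CPM in Tsc1Δhep, against at most 0.327 CPM in the 6 libraries without p62. In Tmem54 p62F/F library 1 and Tsc1Δhep library 3 were the lowest of their groups. Since the gene was picked for its likeness to the members over these libraries, this is no separate support. Myc, the proto-oncogene, was at 15.6, 22.9 and 10.1 CPM in Tsc1Δhep, against 1.33, 1.53 and 3.03 CPM in Tsc1/p62Δhep. For Afp alone the most similar genes were Scai (0.966), Adck4 (0.964), I830012O16Rik (0.964), Psmg2 (0.960), Tmem54 (0.954) and Rsad2 (0.951).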

How the data were processed

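RNA was measured in 12 mouse liver libraries, 3 in each of 4 groups, with groups and numbers taken from the sample titles. Per the labels' protocols, Trizol RNA of flash-frozen liver was poly(A)-selected, and strand-directed libraries were read on 1 of 2 Illumina instruments, single-end with 75 nucleotides or paired-end, without saying which library ran on which. The authors deposited 2 tables of gene counts, whole numbers with no normalization, by gene symbol. Aligner, counter and use of strand: not given in the sources used here. Build hg19 is named by the submitters' processing notes although the symbols are those of mouse, so no coordinates of that build were used. RefSeq tables matched 99.3% of symbols.

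Genes were kept with filterByExpr (minimum count 10, total 15) and scaled by TMM within a table, and tested with edgeR 4.0.16 (R 4.3.3) by the quasi-likelihood test, Benjamini-Hochberg adjustment over all genes and a threshold of 0.05. The interaction used all 12 libraries in 1 model. CPM values printed are scaled to library totals, and intervals and limits of 3 counts cover counting error only. Log2 levels used a pseudocount of 1. Alternatives were other scalings, DESeq2 1.42.0, limma 3.58.1 on log2(CPM + 1), no filter, the replicate number as a block, all libraries in 1 model and leaving out each library. The statistic scripts were tested on simulated data. No pair of libraries of a group agreed within sampling noise (lowest chi-square per gene 36.2), so none were counted as 1 sample.

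The members and gene lists were chosen with earlier results of these data known. Every member is named in every comparison. From each other list the text names up to 4 genes with the smallest p past the threshold, or up to 2 with the smallest p where none passed, close relatives of the members, and the 6 genes most like the members' mean and most like Afp. A few others are named as chosen after their values were seen. One listed gene and a promoter motif are not reported here.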

Additional observations from a re-analysis of the deposited data

Results flagged for a closer look

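For 3 of the 10 genes the p62 effect differed between the Tsc1 backgrounds by the interaction contrast of edgeR's quasi-likelihood test. The difference was -6.01 ± 1.10 on the log2 scale for Tff3, with every p62Δhep library below every p62F/F library and every Tsc1/p62Δhep library below every Tsc1Δhep library. It was -5.17 ± 0.94 for Ly6d and -5.31 ± 1.26 for Spink3, with the same order of libraries in both pairs of groups. Over the fits that leave out 1 library, Tff3 and Ly6d kept an adjusted p below 0.05 and Spink3 lost it without p62Δhep library 2. Since p62F/F alone lacked Cre, the transgene enters only 1 side of this contrast, and its part was not tested.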

How the results depend on the processing

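Between p62Δhep and p62F/F, DESeq2 called 4 members lower and leaving out 1 library gave 0 to 2, with 2 (Scd2 and Akr1c18) without p62F/F library 1. Leaving out both libraries that stand apart (p62F/F 1 and p62Δhep 1), chosen after seeing the data, gave 3. That fit called 89 of 12726 genes lower and 19 higher. Between Tsc1/p62Δhep and Tsc1Δhep the alternatives gave 7 to 9 members lower, with Gpc3 lost in 5 fits and Igf2, where it reached the filter, gained in some fits and not in others. For the difference of effects leaving out 1 library gave 2 to 3 members lower, and limma on log2(CPM + 1) added Igf2bp3 as lower and called 1 higher (Akr1c18, 3.39, adjusted p = 0.0325). The sign of that difference turned for Gpc3, where fits without 1 library ran from -2.24 to 1.11 (positive without p62F/F 1 at 0.48, p62F/F 3 at 0.40, p62Δhep 1 at 0.26, Tsc1Δhep 2 at 1.11, Tsc1/p62Δhep 1 at 0.21 and Tsc1/p62Δhep 2 at 0.09), for Igf2 (-3.04 to 0.15, positive without Tsc1Δhep 2) and for Akr1c18 (-3.08 to 4.12, negative without Tsc1/p62Δhep 2 and, at -0.03, without Tsc1Δhep 3). None of these passed the threshold, and the cause was not tested. In all, 117 of 126, 107 of 112 and 168 of 180 member values kept direction and side of the threshold. Over all genes, calls lower ranged from 1 to 48 (148 by DESeq2), 760 to 3139 and 676 to 2551 when 1 library was left out, for the 3 contrasts in the same order, and calls higher from 0 to 1 (32 by DESeq2), 351 to 2686 and 465 to 2401. Same-numbered libraries did not deviate together (correlations -0.42, -0.53 and 0.03 in the first table and -0.08, -0.08 and -0.13 in the second), and a fit with the replicate number as a block called 0, 7 and 3 members lower, and 543 lower and 368 higher genes for the difference. Depth limits Igf2bp3 in the first table and Igf2 and Akr1c18 in the second, where most libraries hold few counts.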
